A study of Mus musculus with 9 samples.

Results

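Cholesterol and fatty acids are built from the same precursor, acetyl-CoA, and the genes of both routes are switched on together by the sterol regulatory element binding proteins (SREBPs). SREBP precursors sit in the membrane of the endoplasmic reticulum, bound to the escort protein Scap. When sterols are abundant, Insig proteins hold this complex in place. When sterols fall, Scap carries SREBP to Golgi proteases, and the released factor enters the nucleus and binds sterol regulatory elements (SREs), often next to a CCAAT box bound by the factor NF-Y. The small intestine both makes cholesterol and absorbs it from food, so that its epithelium holds this synthesis programme next to the machinery of uptake and export.

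A list of 29 genes of this programme was followed, chosen by name: the SREBP genes Srebf1 and Srebf2, their retention factor Insig1, 18 enzymes that lead from acetyl-CoA to cholesterol, the sterol carrier Stard4 and 7 genes of fatty acid synthesis, elongation and desaturation. All 29 were among the 50600 genes of the deposited tables and among the 16208 genes that were tested. Their expression was read from 9 mouse RNA-sequencing libraries, in 3 groups of 3. Tumoroids came from intestinal tumours of Apc1638N/+ mice, labelled as of mixed strain, were untreated, and were grown without R-spondin. Organoids came from the small intestine of WT mice labelled C57BL/6 and were kept for 24 hr in medium that was 50% conditioned medium, taken from tumoroids (T-cM) or from WT organoids (WT-cM), in the presence of EGF, Noggin and R-spondin. Each set of 3 replicates came from 3 different mice. The strain labels differ between the groups, whereas the study's methods give a mixed background for all its mice, and the methods also give an older age for the mice that bore tumours. Genotype, age, tumour origin, culture medium and any difference in strain between tumoroids and organoids cannot be told apart. By the study's methods, tumoroid medium was made without R-spondin and WT organoid medium with it. Tumoroid medium was also conditioned for as long or longer. R-spondin level and conditioning time may therefore differ between the organoid groups, and cannot be told apart from what the cells released.

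For the 6 organoid libraries, the deposited title and the deposited treatment field name opposite media. The titles alone were used to name the groups (T-cM-titled or WT-cM-titled), and every direction between them turns round if the treatment field is right. The comparisons with tumoroids need only that organoids and tumoroids are told apart, and were made against each organoid group.

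The sequence around the start site of these genes was read from RefSeq promoters (GRCm38.p6), each with 250 bases before and 50 bases after a start site. Promoters were found for 23 of the 29 genes, 28 promoters in all. There was no entry for Fdps, Fdft1, Sqle, Stard4, Scd1 and Scd2. Both strands were searched for CCAAT and for the SRE-like motif TCACNCCAC. The 6 stretches shown here belong to genes with a match outside annotated exons, taken in order of the smallest p in the comparison of the organoid groups. They are written 5′ to 3′ on the strand of the gene, with the motifs in capitals. ATTGG is CCAAT read on the other strand, and TCACCCCAC in Hmgcs1 is the SRE-like match.

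Insig1, chr5:28071176-28071220, plus strand: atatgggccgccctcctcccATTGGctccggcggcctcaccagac
Hmgcs1, chr13:119690101-119690250, plus strand: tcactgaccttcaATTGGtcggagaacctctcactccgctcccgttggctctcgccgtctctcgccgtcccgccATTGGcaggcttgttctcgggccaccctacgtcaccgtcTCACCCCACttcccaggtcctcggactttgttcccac
Sc5d, chr9:42264301-42264344, minus strand: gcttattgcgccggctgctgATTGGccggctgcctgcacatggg
Mvk, chr5:114444076-114444225, plus strand: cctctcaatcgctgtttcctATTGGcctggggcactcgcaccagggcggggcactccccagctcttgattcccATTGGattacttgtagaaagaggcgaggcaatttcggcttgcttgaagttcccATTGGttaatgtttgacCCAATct
Srebf1, chr11:60222723-60222767, minus strand: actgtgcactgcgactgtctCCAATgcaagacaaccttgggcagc
Srebf2, chr15:82147114-82147158, plus strand: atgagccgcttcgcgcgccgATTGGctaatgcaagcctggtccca

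CCAAT was present in a promoter of 20 of the 23 genes (87%), against 41.1% of the 27025 genes with a promoter in the same set. Of the 41 matches in these genes, 37 started before the start site, 27 of them on the strand opposite to the gene. In 10 genes a single promoter held 2 or more matches before its start site, and Mvk held the most of those printed. Acat2, Acaca and Elovl6 had no match in their promoters. The SRE-like motif was found in Hmgcs1 alone (1 of 23), against 1.44% of all genes. The letters searched are short and strict, and a match or its absence was not tied to any measurement of binding.

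**Figure D1:**
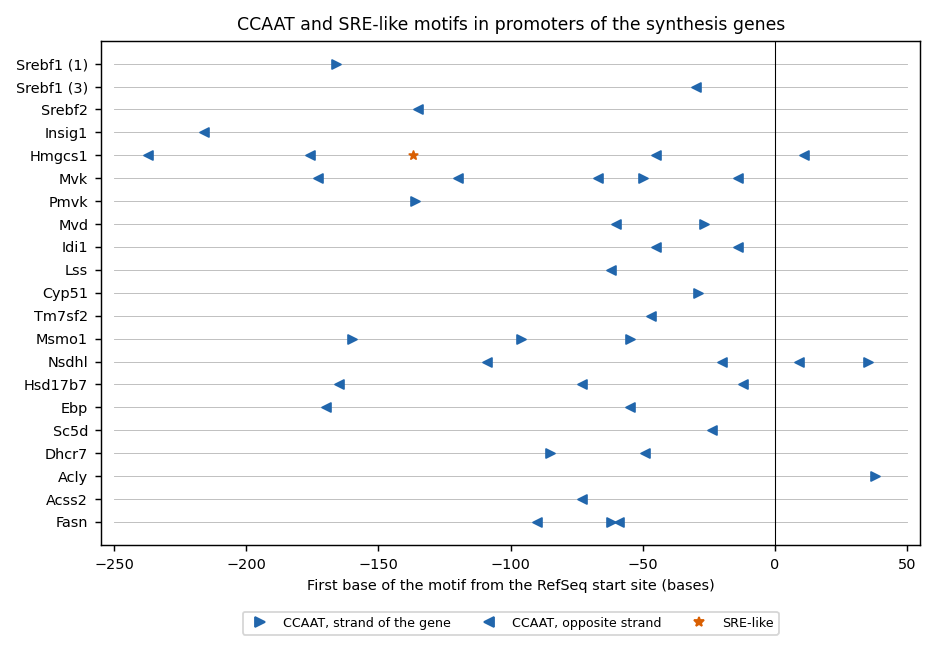
Position of each CCAAT (blue triangles, pointing right on the strand of the gene and left on the other strand) and SRE-like match (orange star) in bases from the RefSeq start site, 1 line per promoter that holds a match. Numbers in brackets tell apart promoters of the same gene. Most matches (37 of 41 CCAAT) lie before the start site, and the only SRE-like match is in Hmgcs1.

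The 9 libraries held 16541635 to 25170966 reads counted on genes. Levels of a gene are given as CPM, which are counts on a common library size after scaling with edgeR's TMM factors (0.89 to 0.96 in organoids, 1.19 to 1.21 in tumoroids), and 3 counts are worth 0.103 to 0.204 CPM, a limit that covers counting error only. Levels are compared between genes as the deposited TPM, which also divide by gene length. A gene was called where its adjusted p was under 0.05 (edgeR quasi-likelihood F test, Benjamini-Hochberg over all 16208 genes). The 29 genes were well above the limit of detection, the lowest single value being 42 counts of Fdps.

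The levels of the 29 genes spanned a wide range. Scd2, a stearoyl-CoA desaturase, was the highest of the 29 in each group, with a mean of 1329 ± 174 TPM (SD, n = 3) in WT-cM-titled organoids. There it was followed by Insig1 with 596 ± 99.1 TPM, Hmgcs1, the synthase that makes HMG-CoA, with 568 ± 87.8 TPM and Scd1, the closest relative of Scd2 on the list, with 483 ± 88.7 TPM, and these 3 neighbours lay within their spread of each other. The lowest in each group were Acss2 (35.6 ± 1.59 TPM in WT-cM-titled organoids), Acaca (12.6 ± 3.22 TPM) and Fdps (8.99 ± 2.44 TPM). Fdps, the farnesyl diphosphate synthase, shares 1124 exonic bases on its own strand with the gene model Gm43738, which had 0 counts, so that its level is uncertain. Tm7sf2, a sterol reductase, likewise shares 532 bases on the same strand with Vps51.

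Together the 29 genes made up 5935, 6112 and 5118 TPM in WT-cM-titled organoids 1, 2 and 3. The sum was 5586, 5460 and 4935 TPM in T-cM-titled organoids. It was 2438, 1759 and 3267 TPM in tumoroids, so that every tumoroid library lay below every organoid library. Within the list, Insig1 went from rank 2 of 29 in both organoid groups to rank 15 in tumoroids, and Scd1 from rank 4 to rank 20. In the other direction, Acly, the ATP citrate lyase that supplies cytosolic acetyl-CoA, went from rank 19 to rank 4, and Srebf2 from rank 11 to rank 3.

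**Figure D2:**
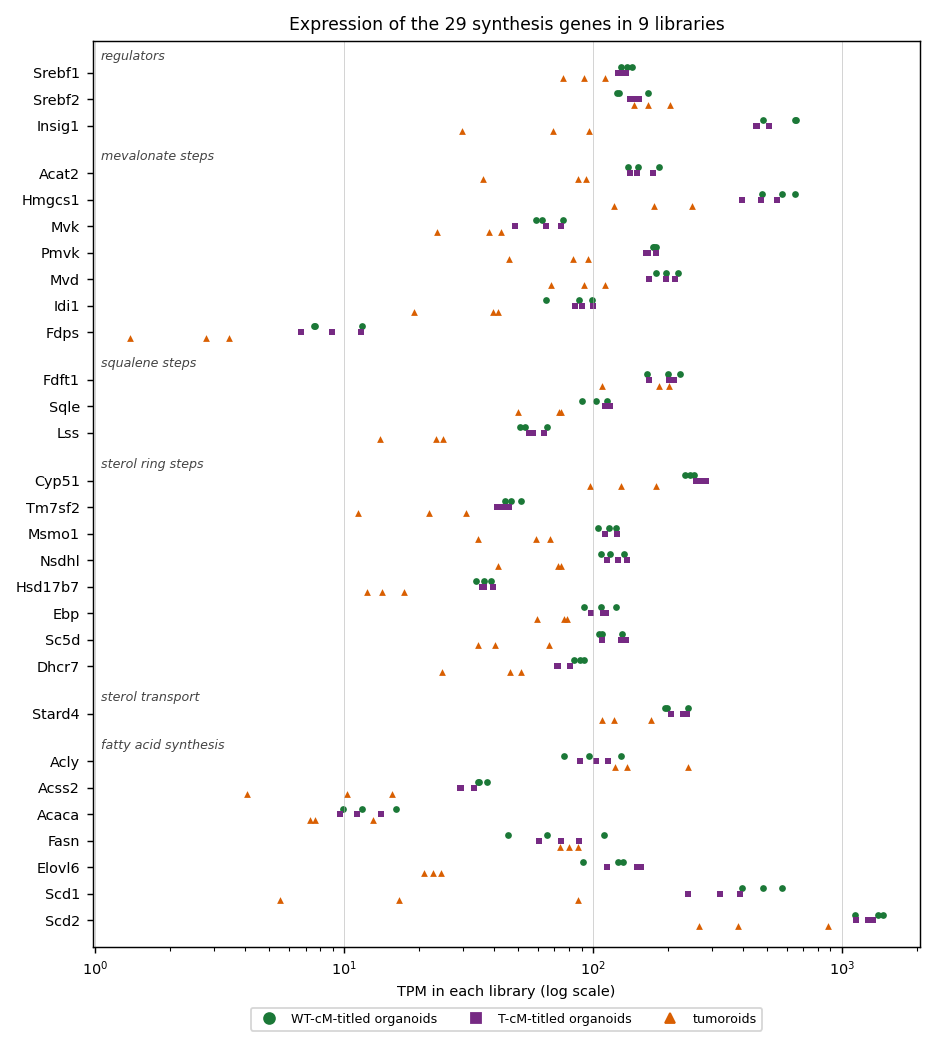
TPM of each of the 29 genes in each of the 9 libraries on a log scale, grouped by role, with circles for WT-cM-titled organoids, squares for T-cM-titled organoids and triangles for tumoroids. Tumoroids sit to the left of both organoid groups for most genes, with Srebf2, Acly, Fasn, Acaca and Fdft1 as exceptions, and summed to 1759 to 3267 TPM against 4935 to 6112 TPM in organoids.

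Tumoroids were then compared with organoids, beginning with the regulators. Both comparisons use the same 3 tumoroid libraries and one fit, so they are not independent of each other. Where a pair of values is given for tumoroids, the first is against WT-cM-titled organoids and the second against T-cM-titled organoids. Srebf1 was at 307, 305 and 337 CPM in WT-cM-titled organoids, 276, 310 and 305 CPM in T-cM-titled organoids and 131, 139 and 175 CPM in tumoroids. All 3 tumoroids were below all 6 organoid libraries. The log2 fold change was -1.09 ± 0.15 (SE) and -1.003 ± 0.15 (adjusted p = 4.1e-04 and 6.5e-04).

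Srebf2, which encodes the SREBP that acts mainly on cholesterol genes, was at 317, 263 and 272 CPM in WT-cM-titled organoids, 297, 293 and 296 CPM in T-cM-titled organoids and 254, 195 and 285 CPM in tumoroids. Tumoroids overlapped with WT-cM-titled organoids and were just below T-cM-titled organoids. The log2 fold changes of -0.22 ± 0.17 and -0.27 ± 0.17 were not called (adjusted p = 0.33 and 0.22). They turned positive (0.30 and 0.22) when log2(TPM + 1) was fitted with limma in place of TMM-scaled counts with edgeR. In that fit the median over all genes was 0.52 and 0.51, above both values.

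Insig1, itself a textbook target of SREBPs, was at 567, 839 and 887 CPM in WT-cM-titled organoids and at 544, 573 and 664 CPM in T-cM-titled organoids. It was at 65.1, 24.6 and 83.4 CPM in tumoroids. No tumoroid came near the organoid range, and the log2 fold change was -3.73 ± 0.42 and -3.36 ± 0.41 (adjusted p = 1.1e-04 and 1.8e-04).

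Over the whole list, 26 of the 29 genes fell in tumoroids against WT-cM-titled organoids and 0 rose, where 41.9% of all tested genes were called, 18.5% lower and 23.4% higher. Of these, 24 fell more than 2-fold, against 11.6% of all genes (18.2% rose as much). Against T-cM-titled organoids 26 fell and 0 rose, with 44.5% of all genes called, 19.2% lower and 25.3% higher. Here too 24 fell more than 2-fold, against 11.8% of all genes (19.4% rose as much). The genes not called in either comparison were Srebf2, Acly and Fasn. The median log2 fold change was -1.64 and -1.58, beside 0.15 and 0.16 over all genes tested. In 26 genes all tumoroids were below all WT-cM-titled organoids (22.5% of all genes), and in 28 they were below all T-cM-titled organoids (23.8% of all genes). No gene of the list had all tumoroids above either organoid group, against 28.2% and 30.1% of all genes.

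All 18 enzymes of the cholesterol route fell in both comparisons, from the mevalonate steps to the sterol ring. Their log2 fold changes ran from -2.36 (Fdps) to -0.76 (Fdft1, the squalene synthase) against WT-cM-titled organoids, and from -2.35 to -0.72 against T-cM-titled organoids, with the same genes at both ends. The median was -1.76 and -1.67 for the 7 mevalonate genes, -1.15 and -1.30 for the 3 squalene genes and -1.62 and -1.51 for the 8 sterol ring genes.

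Among the mevalonate genes, Hmgcs1 was at 710, 878 and 674 CPM in WT-cM-titled organoids, 689, 622 and 540 CPM in T-cM-titled organoids and 174, 106 and 226 CPM in tumoroids. The fall came to a log2 fold change of -2.16 ± 0.27 and -1.87 ± 0.27 (adjusted p = 2.2e-04 and 4.8e-04). Every tumoroid was far below every organoid library. Mvd, the diphosphomevalonate decarboxylase, was at 156, 153 and 145 CPM, then at 154, 148 and 131 CPM, and at 63.5, 33.9 and 47.6 CPM in the same order of groups, with a log2 fold change of -1.65 ± 0.21 and -1.58 ± 0.21 (adjusted p = 2.3e-04 and 2.8e-04). Pmvk, the phosphomevalonate kinase, was at 114, 128 and 130 CPM in WT-cM-titled organoids, 108, 124 and 120 CPM in T-cM-titled organoids and 49.8, 21.01 and 39.6 CPM in tumoroids (log2 fold change -1.76 ± 0.27 and -1.67 ± 0.26). For both kinase and decarboxylase the tumoroids were separate from the organoid groups, which overlapped with each other, and tumoroid 2 was the lowest library. The other mevalonate genes, Acat2, Mvk, Idi1 and Fdps, fell too, with log2 fold changes from -2.36 to -1.43 in the first comparison.

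In the squalene steps, Lss, which folds epoxysqualene into lanosterol, was at 267, 239 and 240 CPM in WT-cM-titled organoids, 266, 253 and 251 CPM in T-cM-titled organoids and 82.0, 40.3 and 70.4 CPM in tumoroids. Fitted log2 fold changes were -1.95 ± 0.24 and -2.00 ± 0.24 (adjusted p = 1.7e-04 and 1.5e-04). Sqle, the squalene epoxidase, moved less and was at 240, 238 and 219 CPM, then at 250, 265 and 260 CPM, and at 126, 74.2 and 113 CPM in the same order. The log2 fold change of Sqle was -1.15 ± 0.19 and -1.30 ± 0.19 (adjusted p = 0.0011 and 5.2e-04). Fdft1 shares 774 exonic bases with Ctsb on the opposite strand, and whether counting used the strand is not stated. Ctsb had 122647 counts over the 9 libraries against 34880 for Fdft1, so the small change of Fdft1 is uncertain.

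In the sterol ring steps, Hsd17b7, a ketoreductase in the removal of methyl groups from the ring, had even values within each group. It was at 75.3, 77.3 and 75.6 CPM in WT-cM-titled organoids, 78.2, 74.0 and 78.2 CPM in T-cM-titled organoids and 19.2, 19.4 and 24.8 CPM in tumoroids. Its log2 fold change was -1.85 ± 0.14 and -1.86 ± 0.14 (adjusted p = 1.3e-05 and 1.4e-05), the smallest p of the 18 enzymes in both comparisons. Sc5d, a sterol desaturase, was at 195, 264 and 232 CPM, then 205, 268 and 264 CPM, and 51.1, 52.8 and 90.8 CPM in tumoroids (log2 fold change -1.83 ± 0.25 and -1.92 ± 0.25). Ebp, the sterol isomerase, was at 109, 104 and 93.1 CPM, then 101, 103 and 95.4 CPM, and 55.7, 37.0 and 49.4 CPM in tumoroids (log2 fold change -1.11 ± 0.16 and -1.07 ± 0.16). None of these overlapped between tumoroids and organoids.

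Msmo1, the methylsterol oxidase, was at 273, 317 and 280 CPM in WT-cM-titled organoids, 297, 311 and 289 CPM in T-cM-titled organoids and 111, 56.8 and 115 CPM in tumoroids, with a log2 fold change of -1.62 ± 0.25 and -1.67 ± 0.25. Dhcr7, the reductase that forms cholesterol at the end of the route, was at 204, 215 and 213 CPM, then 182, 170 and 175 CPM, and 82.7, 38.6 and 83.3 CPM in tumoroids. The fall came to a log2 fold change of -1.63 ± 0.26 and -1.37 ± 0.26. The other ring enzymes, Cyp51, Tm7sf2 and Nsdhl, lay between -1.67 and -1.37 against WT-cM-titled organoids. Stard4, which moves sterols between membranes, was at 421, 563 and 478 CPM, then 444, 541 and 540 CPM, and 186, 255 and 189 CPM in tumoroids (log2 fold change -1.21 ± 0.19 and -1.28 ± 0.19). Stard4 was the only 1 of the 29 genes with its highest tumoroid value in tumoroid 2.

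The 7 fatty acid genes did not move as a block. Of these, 5 fell in both comparisons, with a median log2 fold change over all 7 of -1.92 and -1.81, while Fasn and Acly were not called. The 5 that fell include both desaturases and the elongase, which act on finished fatty acids. Elovl6, which lengthens saturated and monounsaturated chains, was at 322, 339 and 258 CPM in WT-cM-titled organoids, 376, 408 and 308 CPM in T-cM-titled organoids and 41.0, 39.0 and 43.9 CPM in tumoroids. Fitted log2 fold changes were -2.89 ± 0.18 and -3.14 ± 0.18 (adjusted p = 6.0e-06 and 4.9e-06), the smallest p of the 29 genes in both comparisons, and its 3 tumoroid values had the smallest relative spread on the list (coefficient of variation 5.95%).

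Scd1, the stearoyl-CoA desaturase that introduces the double bond of oleate, had the lowest fold change and the widest spread. It was at 884, 1155 and 836 CPM in WT-cM-titled organoids, 732, 636 and 490 CPM in T-cM-titled organoids and 24.6, 7.18 and 118 CPM in tumoroids. Its log2 fold change was -4.26 ± 0.84 and -3.63 ± 0.82 (adjusted p = 0.0029 and 0.0056). The tumoroid coefficient of variation was 119%. Scd2 fell by 1.92 ± 0.39 and 1.81 ± 0.39 on the log2 scale, and the ratio of Scd2 to Scd1 in TPM was 2.55 to 2.91 in WT-cM-titled organoids, 3.28 to 4.72 in T-cM-titled organoids and 10.04 to 48.1 in tumoroids, so that the 3 groups did not overlap. The related genes Scd3 and Scd4 had 91 and 73 counts over all 9 libraries.

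Fasn, the fatty acid synthase, was at 462, 297 and 217 CPM in WT-cM-titled organoids, 374, 331 and 277 CPM in T-cM-titled organoids and 246, 235 and 266 CPM in tumoroids. Its log2 fold change was -0.39 ± 0.25 and -0.40 ± 0.25 (adjusted p = 0.25 and 0.24). Acly was at 260, 212 and 176 CPM, then 235, 220 and 196 CPM, and 221, 174 and 354 CPM in tumoroids, with a log2 fold change of 0.21 ± 0.26 and 0.20 ± 0.26 (adjusted p = 0.54 and 0.55). Tumoroids overlapped with both organoid groups for Acly. With these standard errors a change of either gene is not excluded. Acaca, the carboxylase between Acly and Fasn in the route, fell by 0.96 ± 0.24 and 0.83 ± 0.24 on the log2 scale (adjusted p = 0.0095 and 0.019). Acss2, which makes acetyl-CoA from acetate, fell by 2.36 ± 0.40 and 2.12 ± 0.39 (adjusted p = 0.0012 and 0.0020). Acss2 overlaps on the opposite strand with Gss over 395 exonic bases.

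**Figure D3:**
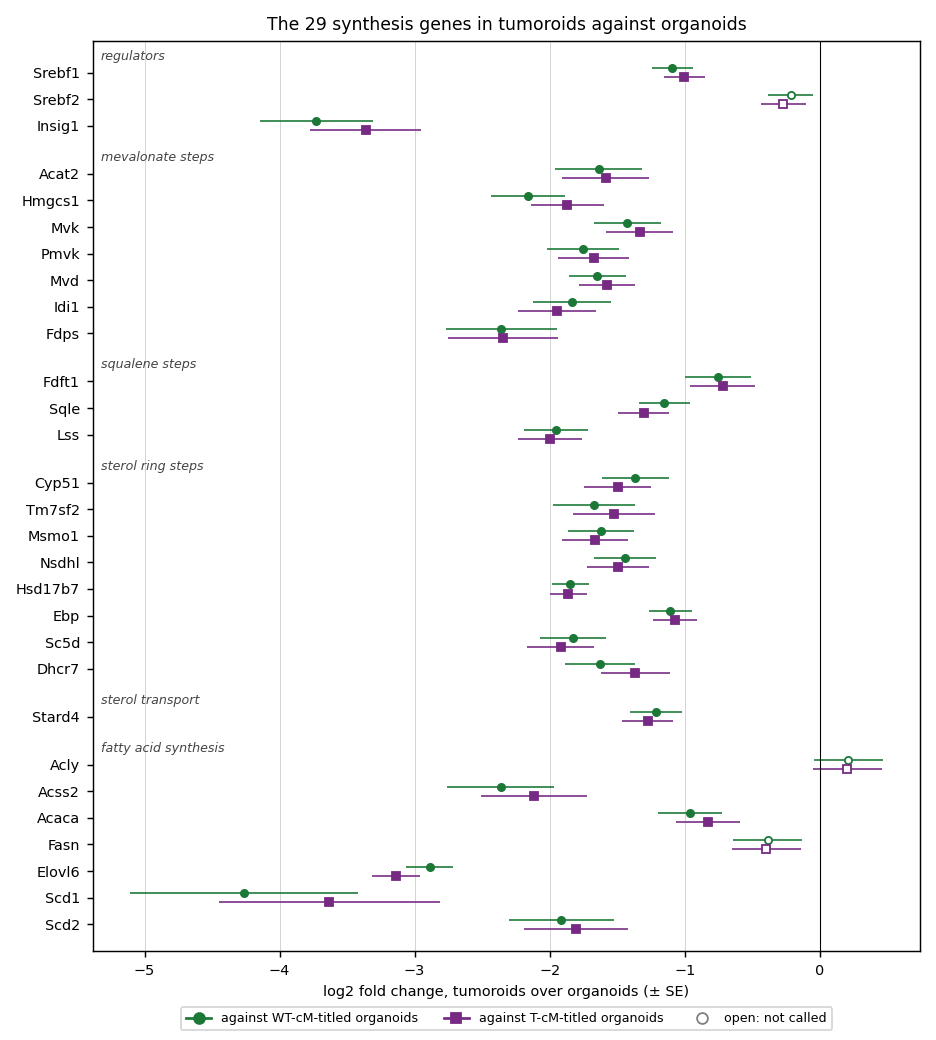
Log2 fold change (± SE) of the 29 genes in tumoroids against WT-cM-titled organoids (circles) and T-cM-titled organoids (squares), with filled symbols at an adjusted p under 0.05 and open symbols otherwise. All but Srebf2, Acly and Fasn are filled and lie left of 0, from -4.26 (Scd1) upwards.

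The tumoroid libraries differed from each other more than the organoid libraries did. The median coefficient of variation of the 29 genes was 34.5% in tumoroids, 8.75% in WT-cM-titled organoids and 7.22% in T-cM-titled organoids. Tumoroid 2 was the lowest tumoroid in 25 of 29 genes and in 16 of the 18 cholesterol enzymes. Tumoroid 3 was the highest in 17 of 29 genes, among them all 7 fatty acid genes, while tumoroid 1 was the highest in 11 of the 18 cholesterol enzymes. Without tumoroid 2, the median log2 fold change was -1.37 and -1.40, and 26 and 25 genes were lower.

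Markers of cell types moved with this comparison. Of all tested genes, 18.5% and 19.2% were lower and 23.4% and 25.3% higher, against WT-cM-titled and T-cM-titled organoids. The 8 enterocyte markers, which include the fatty acid binding protein Fabp1 and the lipoprotein genes Apoa1, Apoa4 and Mttp, fell in 8 of 8 cases against both groups, with a median log2 fold change of -7.19 and -7.18. Their summed level was 25402 to 58599 TPM in WT-cM-titled organoids, 26908 to 40875 TPM in T-cM-titled organoids and 87.9 to 560 TPM in tumoroids. In these bulk libraries, fewer cells of a type and less RNA per cell cannot be told apart. The part of enterocyte content in the fall of the synthesis genes was not tested. The epithelial markers stayed high. Their summed level was 7628 to 9221 TPM in WT-cM-titled organoids, 7830 to 10961 TPM in T-cM-titled organoids and 9742 to 11610 TPM in tumoroids. The range of T-cM-titled organoids overlapped with that of tumoroids. In both comparisons 2 of 6 fell (Krt8 and Vil1) and 1 rose (Krt18), beside the shares over all genes given above. Of the 8 proliferation markers 0 were called by edgeR in either comparison, with 0 and 1 at an unadjusted p under 0.05. Of all tested genes, 41.9% and 44.5% were called in either direction. The 5 immune cell markers summed to 1.11 to 2.79 TPM in organoids and 13.8 to 61.6 TPM in tumoroids, with 2 of 5 at 0 counts in all tumoroids. Cd68, a macrophage marker, was higher by 3.75 ± 0.66 and 4.22 ± 0.69 on the log2 scale, and Csf1r, a macrophage receptor, had a log2 fold change of 3.00 ± 1.00 (adjusted p = 0.036) and 2.31 ± 0.97 (adjusted p = 0.079, not called). The tumoroid sum rests on these 2. Ptprc, too low to be tested, overlapped between groups. It was at 0 to 0.486 CPM in WT-cM-titled organoids, 0.317 to 0.902 CPM in T-cM-titled organoids and 0.181 to 0.706 CPM in tumoroids. Fibroblast markers summed to at most 0.33 TPM and endothelial markers to at most 3.06 TPM in any library. Of the adipocyte markers, 3 of 4 had 0 counts in all tumoroids. The other, Cidec, which coats lipid droplets, was at 19.5 to 53.4 CPM in organoids and 2.23 to 12.9 CPM in tumoroids, with a log2 fold change of -2.41 ± 0.58 and -2.33 ± 0.58.

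Genes around the synthesis route were read from separate lists. Of 7 genes for SREBP processing and the sterol sensing receptors LXR, 3 rose and 1 fell against WT-cM-titled organoids, beside 23.4% and 18.5% of all tested genes. Scap rose by 0.60 ± 0.13 (log2, adjusted p = 0.0051) and Mbtps2, a protease that releases SREBP, rose by 0.62 ± 0.20 (adjusted p = 0.034). Nr1h3, which encodes LXR alpha, fell by 2.05 ± 0.16 (adjusted p = 1.5e-05). Mylip, a LXR target that sends lipoprotein receptors for degradation, was at 0.879 to 2.44 CPM in WT-cM-titled organoids and rose in tumoroids, to between 4.05 and 15.4 CPM (adjusted p = 0.031). The same 3 were higher and the same 1 lower against T-cM-titled organoids, beside 25.3% and 19.2% of all tested genes. The genes that retain, carry and cut SREBP did not follow a single direction, with Insig1 far lower, Scap and Mbtps2 modestly higher, and Insig2 and Mbtps1 not called.

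Of 18 tested genes for fatty acid elongation, desaturation and supply, 12 fell and 1 rose against WT-cM-titled organoids. Against T-cM-titled organoids 10 fell and 1 rose. Of all tested genes, 18.5% and 19.2% were lower and 23.4% and 25.3% higher. Gpam, which starts glycerolipid synthesis, fell by 1.59 ± 0.23 and 1.10 ± 0.23. Mlxipl, which encodes the carbohydrate response factor ChREBP, was at 211, 267 and 416 CPM in WT-cM-titled organoids, 217, 426 and 561 CPM in T-cM-titled organoids and 71.5, 77.3 and 29.8 CPM in tumoroids (log2 fold change -2.32 ± 0.45 and -2.75 ± 0.46). Slc25a1, the mitochondrial citrate carrier, fell by 1.06 ± 0.19 in both comparisons, and Aacs fell by 1.16 ± 0.20 and 1.23 ± 0.20. The gene that rose was Elovl5, an elongase of polyunsaturated chains (log2 fold change 0.77 ± 0.14 and 0.68 ± 0.14).

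The 12 genes of sterol export, esterification and transport held 4 that were higher and 4 that were lower against WT-cM-titled organoids, beside 23.4% and 18.5% of all tested genes. Those that fell were Npc1l1, which takes up sterols at the brush border (-4.24 ± 0.75), the sterol transporter pair Abcg5 (-2.90 ± 0.80) and Abcg8 (-3.01 ± 0.78), and the sterol acyltransferase Soat2 (-2.62 ± 0.58). The sizes of these folds depend on tumoroid 2, the highest tumoroid for each: Npc1l1 was at 22.4, 46.6 and 3.37 CPM in tumoroids 1, 2 and 3, Abcg5 at 22.5, 70.2 and 3.61 CPM and Soat2 at 15.4, 42.6 and 5.77 CPM. The other acyltransferase, Soat1, moved the opposite way. It was at 49.2, 43.6 and 50.3 CPM in WT-cM-titled organoids, 36.2, 38.8 and 51.3 CPM in T-cM-titled organoids and 194, 231 and 168 CPM in tumoroids (log2 fold change 2.05 ± 0.18 and 2.23 ± 0.18, adjusted p = 3.3e-05 and 2.2e-05). Npc1, which releases cholesterol from lysosomes, rose by 1.204 ± 0.18 and 1.24 ± 0.18, and Osbpl3 rose by 1.45 ± 0.37 in the first comparison. Abcg1, a sterol exporter, was at 0.110 to 0.529 CPM in the 6 organoid libraries and at 6.80, 10.1 and 19.9 CPM in tumoroids, and was called in both comparisons. Against T-cM-titled organoids, Stard5 was higher as well, making 5 higher and 4 lower, beside 25.3% and 19.2% of all tested genes. Of 5 tested genes of other prenyl and sterol enzymes, Cyp27a1, a sterol hydroxylase, rose by 2.53 ± 0.30 and 2.95 ± 0.31. Dhdds and Fdxr were called higher in the second comparison, without a test of the difference between the comparisons. Beside these 1 and 3 of 5 genes, 23.4% and 25.3% of all tested genes were higher.

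**Figure D4:**
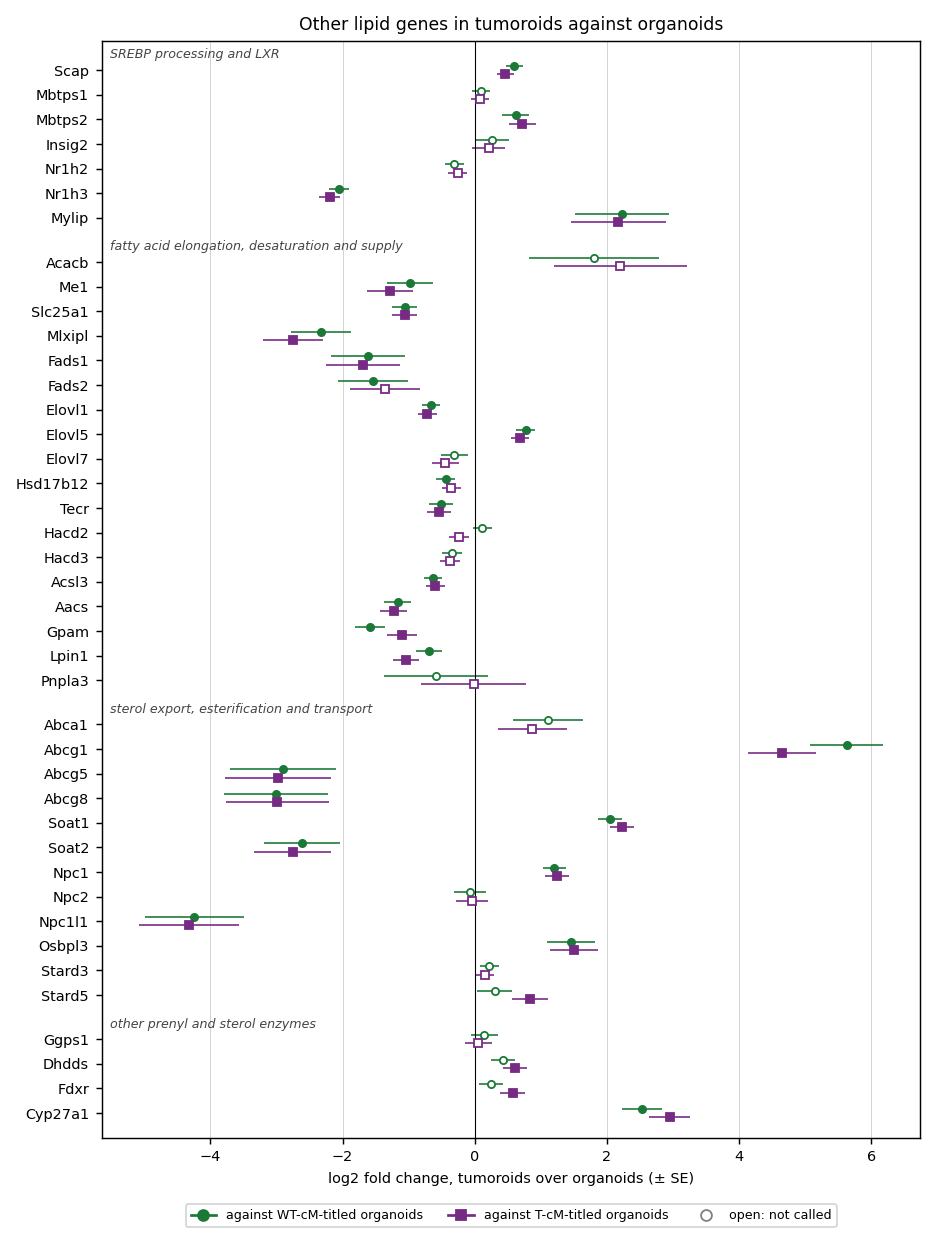
Log2 fold change (± SE) of 41 other lipid genes in tumoroids against WT-cM-titled organoids (circles) and T-cM-titled organoids (squares), in 4 lists, with open symbols for values not called. Ch25h, near 0 counts in organoids, is left out. Fatty acid genes lie mostly left of 0, while Soat1 (2.05), Npc1 (1.204), Cyp27a1 (2.53) and Abcg1 lie right of it.

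Between the organoid groups, the log2 fold changes of the synthesis genes ran from -0.62 to 0.26. With the replicate number as a block, 1 of the 29 genes was higher in T-cM-titled than in WT-cM-titled organoids and 4 were lower, where 5.03% of all tested genes were higher and 5.05% lower. Called and past an absolute log2 fold change of 1 were 0 of the 29, against 0.673% of all genes higher and 0.432% lower (10.1% of all genes were called in either direction). The median log2 fold change was -0.02, beside 0 over all genes, with 14 values above 0 and 15 below. In all 3 pairs the value was higher in T-cM-titled organoids for 5 genes (18.9% of all genes) and lower for 12 genes (22.3% of all genes). The unpaired groups did not overlap for 5 genes, with Sqle above (5.12% of all genes) and Scd1, Dhcr7, Tm7sf2 and Acss2 below (5.28% of all genes). The 24 genes not called had log2 fold changes of -0.23 (Acss2) to 0.17 (Sqle), with standard errors between 0.07 and 0.12 over the 29 genes.

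Scd1 changed most. From the values given above, T-cM-titled organoids were lower in each pair, with a ratio of 0.828, 0.551 and 0.585 in pairs 1, 2 and 3, and all 3 libraries were below all WT-cM-titled organoids. This came to a log2 fold change of -0.62 ± 0.08 (adjusted p = 7.3e-06). Insig1 was also lower in each pair, with a ratio of 0.959, 0.683 and 0.749, but the groups overlapped. The fitted log2 fold change was -0.33 ± 0.08 (adjusted p = 0.0063).

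Hmgcs1 followed the same order of pairs, with ratios of 0.970, 0.708 and 0.801 and a log2 fold change of -0.27 ± 0.08 (adjusted p = 0.021). Dhcr7 was lower by similar steps in all pairs, with ratios of 0.891, 0.791 and 0.823, no overlap between groups and a log2 fold change of -0.25 ± 0.08 (adjusted p = 0.034). For Scd1, Insig1, Hmgcs1 and Dhcr7 alike, pair 1 showed the smallest difference and pair 2 the largest. Elovl6 was the gene that rose, with ratios of 1.17, 1.21 and 1.19 and a log2 fold change of 0.26 ± 0.07 (adjusted p = 0.019). Its groups overlapped, and replicate 3 was the lowest library of each.

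The SREBP genes themselves were not called. Srebf1 had a log2 fold change of -0.08 ± 0.08 and Srebf2 of 0.07 ± 0.08 (adjusted p = 0.62 and 0.68). Neither were the other cholesterol enzymes, 16 of 18, which lay between -0.14 (Tm7sf2) and 0.17 (Sqle). Fasn had pair ratios of 0.810, 1.11 and 1.28, and thus no common direction.

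**Figure D5:**
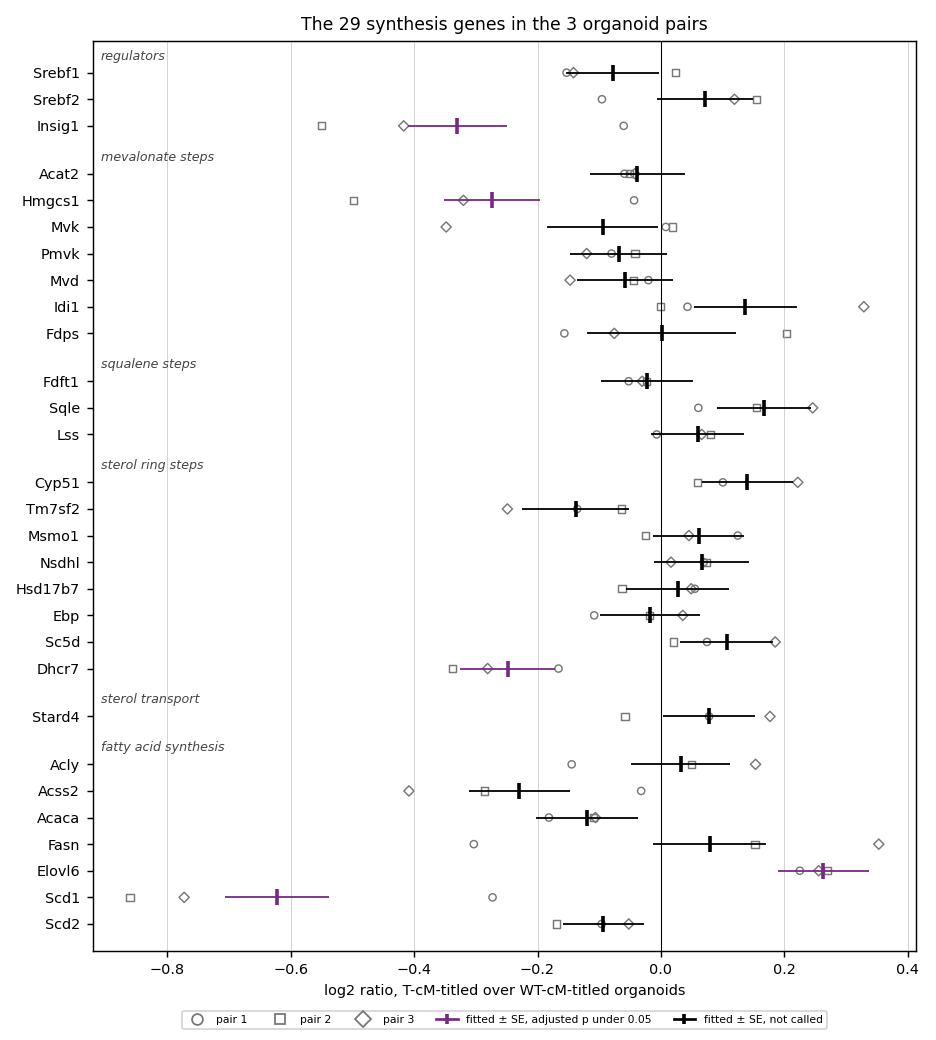
Log2 ratio of T-cM-titled over WT-cM-titled organoids for the 29 genes in pairs 1 (circles), 2 (squares) and 3 (diamonds), with the fitted log2 fold change ± SE as a bar, purple at an adjusted p under 0.05. Scd1, Insig1, Hmgcs1 and Dhcr7 lie left of 0 in all pairs, with pair 1 nearest to 0, and Elovl6 lies right of 0 in all pairs.

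These 5 calls needed the replicate block, while the fitted values moved little without it (Scd1 -0.62, Insig1 -0.35, Hmgcs1 -0.28, Dhcr7 -0.25 and Elovl6 0.26). Without the replicate block 0 of the 29 genes and 0 of 16208 genes were called by edgeR, with 2 and 904 at an unadjusted p under 0.05, and 0 of the 29 by DESeq2 or limma voom. With the block, 7 of the 29 were at an unadjusted p under 0.05, DESeq2 called 3 lower, without Dhcr7, and the newer edgeR quasi-likelihood form 2 lower, without Dhcr7 and Hmgcs1. Leaving out replicate 1 gave 2 genes higher and 5 lower, with all 5 of these calls kept. Without replicate 2, 0 of the 29 were called, and without replicate 3 Scd1 alone kept its call. All 5 kept their direction in the 3 fits that left out a pair, with Scd1 between -0.80 and -0.52 and Hmgcs1, which moved most in proportion, between -0.40 and -0.18.

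Among the related lists, 4 of 18 fatty acid genes were higher in T-cM-titled organoids and 1 was lower, beside 5.03% and 5.05% of all tested genes. Mlxipl rose by 0.39 ± 0.09 on the log2 scale (adjusted p = 0.0040) and Me1, the malic enzyme that supplies NADPH, by 0.32 ± 0.07 (adjusted p = 0.0047), and Lpin1 and Hacd2 each rose by 0.36. Gpam fell by 0.47 ± 0.09 (adjusted p = 5.2e-04). Stard5 fell by 0.52 ± 0.09 and was the only one of 12 sterol transport genes called, and edgeR called 0 of 7 SREBP processing and LXR genes and 0 of 5 prenyl and sterol enzymes, with 0 and 1 at an unadjusted p under 0.05. Marker genes moved between the media too: 1 of 8 enterocyte markers rose (Alpi, 0.75 ± 0.07) and 1 fell (Fabp1, -0.61 ± 0.10), and 5 of 8 proliferation markers fell, with a median of -0.32, where 5.03% of all tested genes were higher and 5.05% lower. No marker value was used to decide which of the conflicting labels is right. Their part in the changes of the synthesis genes was not tested.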

How the data were processed

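Expression was measured in 9 mouse RNA-sequencing libraries (stranded, polyA-selected). The authors aligned reads to mm10 with STAR, counted them on Gencode genes (release 13) and deposited raw counts per gene, not normalised, and TPM. Neither the counting tool and strand setting nor the gene length used for TPM is given in the sources used here. Groups and replicate numbers were taken from titles. Tested were genes that reached a deposited TPM of 1 in 1 or more libraries. Their raw counts were fitted in R 4.3.3 with edgeR 4.0.16 (TMM factors, quasi-likelihood F test in its legacy form), with limma 3.58.1 and DESeq2 1.42.0 as alternatives. The edgeR fits were also run on simulated counts with planted changes. In the organoid comparison 9.39% of these calls were false, above the intended 5%, and 89.6% of planted 1.5-fold changes were recovered. In the tumoroid comparisons 2.6% and 5.48% of calls were false. There 0% and 1.5% of planted 1.5-fold changes were recovered, and 84.8% and 83.3% of 4-fold changes. The organoid groups were compared over 6 libraries, with a block for the replicate number. Deviations of same-numbered organoids from their group means correlated over genes (r = 0.546, 0.338 and 0.547). The mean of -0.236 for other numbers adds nothing to this, because the deviations within a group sum to 0. Tumoroids were compared with organoids over 9 libraries without a block. No 2 libraries held identical values. Gene positions and overlaps came from Gencode release 21. The members, gene lists, motifs and tests were chosen with earlier results of these data known. Values in every library are given for the 3 regulators, for genes called between the organoid groups and for up to 10 genes by smallest p in each tumoroid comparison, with Fasn and Acly added after their values were seen. Of other lists, up to 5 genes by smallest p were named, and Abcg5, Abcg8, Osbpl3, Insig2 and Mbtps1 besides, after their values were seen.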

Additional observations from a re-analysis of the deposited data

How the results depend on the processing

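In the organoid comparison, the counts of genes called higher and lower (1 and 4) became 0 and 0 without the replicate block, 0 and 0 with limma on log2(TPM + 1), and 0 and 0 when an absolute log2 fold change above 1 was required. The newer edgeR quasi-likelihood form called 2 lower. Leaving out a replicate pair gave 0 to 2 higher, 0 to 5 lower and a median of -0.04 to 0.01. In tumoroids, 24 to 26 genes were lower and 0 higher in every alternative run. Leaving out each library gave 25 to 26 lower and a median of -1.80 to -1.37 against WT-cM-titled organoids, and 24 to 26 lower and -1.77 to -1.40 against T-cM-titled organoids. Tumoroids and organoids with the same number showed little common deviation (mean r over genes 0.015 for WT-cM-titled and 0.088 for T-cM-titled organoids), and a replicate block over 9 libraries gave 26 lower in both. Srebf2 turned from negative to 0.30 and 0.22 on log2(TPM + 1), where the median of all genes moved from 0.15 to 0.52 and from 0.16 to 0.51. Relative to that median, the 29 genes moved from -1.79 to -1.68 and from -1.74 to -1.61. The cause was not tested. With 3 libraries a group, small changes such as those of Fasn, most spread in WT-cM-titled organoids, and Acly, most spread in tumoroids, could not be resolved.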
